A study of Mus musculus with 4 samples.

Results

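The 38 genes described here encode the enzymes that break down the branched-chain amino acids (BCAAs: leucine, isoleucine and valine), the enzymes that bring pyruvate into the mitochondrial cycle, and the tricarboxylic acid (TCA) cycle. They were taken by gene name from the array annotation and are 38 of 34797 named genes on the array. By role, 19 act in BCAA breakdown, 5 in pyruvate entry and 13 in the TCA cycle, and Dld encodes a subunit that 3 of the enzyme complexes share. The genes are represented by 54 probes, and the probe with the highest mean signal stands for its gene.

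The cells were of the mouse line 3T3-L1, fibroblasts that can be turned into fat cells (adipocytes) in culture. All cells had first been induced to differentiate and then received their treatment for 7 days. The groups were daidzein+PT (25 uM daidzein, a soy isoflavone, together with 100 ug/ml PT, an extract of pig testis), daidzein (25 uM), PT (100 ug/ml) and PBS, the control. Each group was read on 1 single-colour (Cy3) array, so no comparison of 2 arrays has a replicate error.

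BCAA breakdown starts with a transaminase that removes the amino group, followed by the branched-chain keto acid dehydrogenase complex, which is the committed step and is switched off when the kinase Bckdk phosphorylates it. The leucine, valine and isoleucine arms then run separately and end in acetyl-CoA, acetoacetate or, through propionyl-CoA, the TCA cycle intermediate succinyl-CoA. The pathway is known for its induction when fat cells mature, and its carbon is used there for lipid synthesis, which also draws citrate out of the TCA cycle and relies on pyruvate carboxylase to refill it.

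All 38 genes were well above background on the 4 arrays and no spot was saturated. Levels are given as log2 of the background-corrected signal relative to the 75th percentile of the array, which was 361 for daidzein+PT, 405 for daidzein, 419 for PT and 371 intensity units for PBS. A level serves to compare arrays for 1 probe and not to compare genes. The arrays lay on 1 slide, PT and daidzein+PT in row 2 and PBS and daidzein in row 1. An effect of PT and of the slide row therefore cannot be told apart. Each daidzein pair lies within a row, in columns 3 (PBS) and 4 (daidzein) and columns 1 (PT) and 2 (daidzein+PT). In both rows the array with daidzein had the higher column, so an effect of daidzein and of the column within a row cannot be told apart. The spread between arrays came from the disagreement of the pairs over all genes, and corresponds to an SD of a log2 difference of 0.11 for the brightest of 3 equal classes of genes, 0.14 for the middle and 0.33 for the dimmest. Of the 38 genes, 26 were in the bright class, 10 in the middle and 2, Dbt and Acad8, in the dim class. In the text a gene rose or fell with a treatment when its effect had an adjusted p under 0.05 in an additive limma fit of both treatments to the 4 arrays.

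The pathway was higher as a whole wherever daidzein was present, and highest where both treatments were given. Between daidzein+PT and PBS, 26 of the 38 genes were at least 1.5-fold higher (68.4%, against 5.92% of the 18463 genes measured on both arrays) and 1, Bcat1, was at least 1.5-fold lower (2.63%, against 3.08% of all genes). The median log2 difference was 0.72 for the 38 genes and -0.04 for all genes. With each array scaled by its median 16 of the 38 genes were at least 1.5-fold higher, against 678 of all genes. The median was then 0.52 for the 38 genes and -0.24 for all genes. Pcx (pyruvate carboxylase), Aldh6a1 (the last enzyme of the valine arm) and Bcat2 (the mitochondrial transaminase) had the largest differences, at 6.02-fold, 3.26-fold and 3.06-fold. Of the 38 genes, 34 had their highest level on the daidzein+PT array, 29 their lowest level on the PBS array, and 28 followed the full order daidzein+PT, daidzein, PT, PBS. The share of all genes with these orders was not counted. The order of PT and PBS depends on the scaling. Above 0 in PT over PBS were 30 of the 38 genes, against 7523 of 18256 genes. With each array scaled by its median these counts were 8 and 1722.

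**Figure D1:**
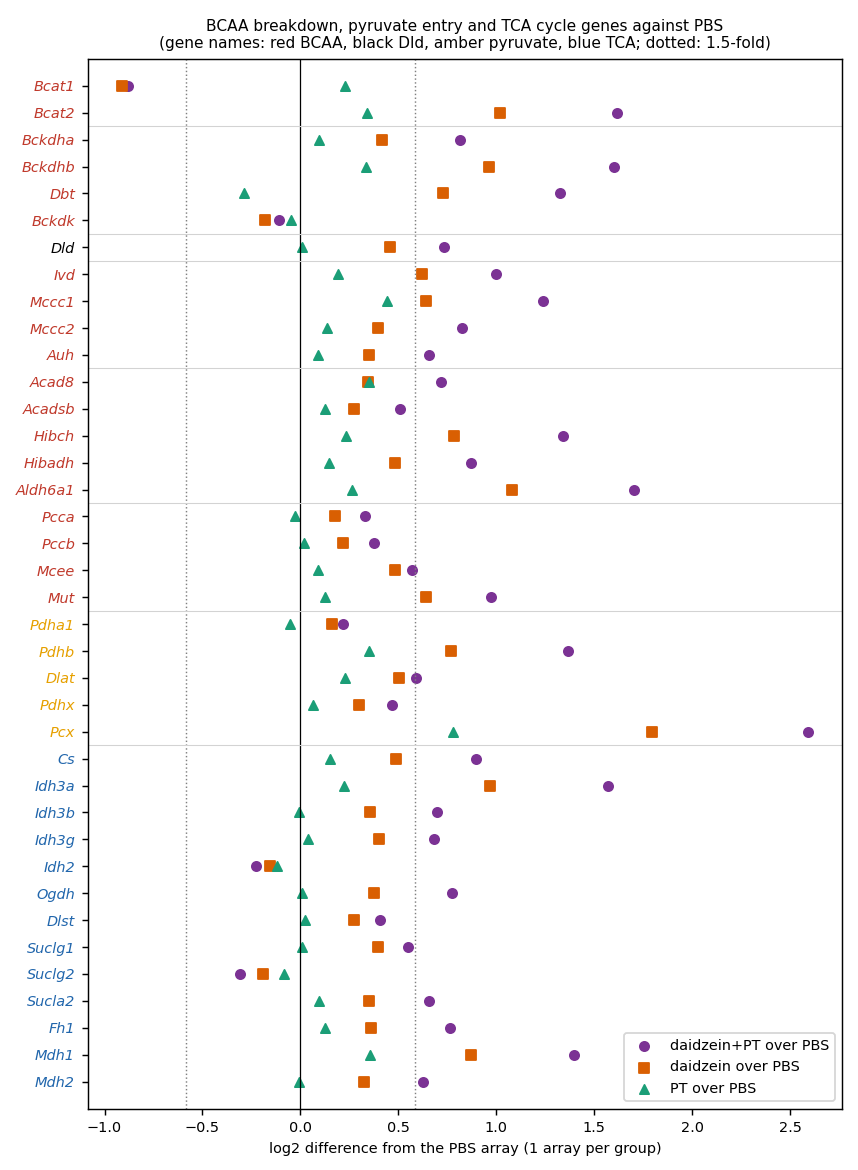
Log2 difference of each of the 38 genes from the PBS array (x axis), 1 gene per line in order of role, with circles for daidzein+PT, squares for daidzein and triangles for PT (1 array per group, no error bars). Dotted lines mark 1.5-fold; 26 of the circles lie to the right of the upper line and 1, Bcat1, to the left of the lower line.

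In the additive fit 32 of the 38 genes rose with daidzein (84.2%, against 9.2% of the 19568 genes fitted) and 2, Bcat1 and Suclg2, fell (5.26%, against 7.5%). With PT, 13 rose (34.2%, against 3.19%) and 0 fell (against 0.818%). These calls rest on how limma sets the spread: with a spread that follows the signal of the gene the fit adds 48.7 prior degrees of freedom to 1 residual degree, and with a common spread it adds 2.32 and calls Pcx alone for daidzein and 0 of the 38 genes for PT. The differences themselves are the same in both fits.

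The upstream sequences of 4 genes that the results turn on are shown, the 250 bases before a RefSeq start on GRCm38.p6, printed 5′ to 3′ on the strand of the gene. Pcx had the largest difference, Bcat2 and Bcat1 are transaminases that differed in opposite directions, and Idh2 was 1 of 2 TCA cycle genes, with Suclg2, that did not rise with daidzein. Capitals mark CCAAT (bound by NF-Y) and GGGCGG (bound by Sp1) or their reverse complements ATTGG and CCGCCC.
Pcx, first of 2 starts (chr19:4510222-4510471, + strand): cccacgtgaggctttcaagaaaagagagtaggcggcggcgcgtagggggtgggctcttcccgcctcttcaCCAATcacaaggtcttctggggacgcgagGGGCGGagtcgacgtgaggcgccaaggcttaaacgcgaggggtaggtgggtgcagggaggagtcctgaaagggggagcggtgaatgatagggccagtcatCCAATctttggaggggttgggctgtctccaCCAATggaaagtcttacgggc
Bcat2, second of 2 starts (chr7:45571029-45571278, + strand): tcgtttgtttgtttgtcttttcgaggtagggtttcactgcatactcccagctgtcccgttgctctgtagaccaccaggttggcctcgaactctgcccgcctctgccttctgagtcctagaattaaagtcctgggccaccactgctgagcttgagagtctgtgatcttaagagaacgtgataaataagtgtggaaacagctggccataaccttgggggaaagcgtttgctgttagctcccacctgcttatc
Bcat1, second of 2 starts (chr6:145076158-145076407, - strand): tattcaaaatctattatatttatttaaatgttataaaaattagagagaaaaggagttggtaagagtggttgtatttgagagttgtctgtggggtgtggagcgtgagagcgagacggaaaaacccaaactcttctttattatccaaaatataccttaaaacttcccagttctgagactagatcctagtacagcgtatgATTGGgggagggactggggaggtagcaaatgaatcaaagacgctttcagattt
Idh2 (chr7:80115351-80115600, - strand): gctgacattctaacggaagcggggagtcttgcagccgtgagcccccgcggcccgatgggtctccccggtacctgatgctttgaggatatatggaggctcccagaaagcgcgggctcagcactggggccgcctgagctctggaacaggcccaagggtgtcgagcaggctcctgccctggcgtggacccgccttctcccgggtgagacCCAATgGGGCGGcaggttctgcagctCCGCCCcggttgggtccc
Of genes with 2 starts, the window shown was picked after both were seen, and the other windows of Pcx, Bcat1 and Bcat2 hold neither motif in their 250 bases. The Pcx window holds 3 CCAAT boxes and 1 GGGCGG, and the Idh2 window 1 CCAAT and 2 GGGCGG, 1 of them reversed. The Bcat1 window holds 1 CCAAT box, reversed, and the Bcat2 window neither motif. RefSeq windows of 300 bases (250 before and 50 after a start) were at hand for 35 of the 38 genes, 46 windows in all, with Dbt, Mut and Idh3a not among them. CCAAT on either strand was in 31 of the 46 windows (67.4%) and in 37.4% of the 32851 windows of all genes. GGGCGG was in 25 of the 46 (54.3%) and in 35.7% of all windows. GCGCATGC, the core of the NRF1 site, was in 3 of the 46 (6.52%, windows of Ogdh and Pccb) and in 2.71% of all windows, and TCAAGGTCA, the estrogen-related receptor element, was in 0 of the 46 and in 0.423% of all windows. A match of letters is a description of the window and does not show that a factor binds there.

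The transaminases came apart. Bcat2, the mitochondrial enzyme, had log2 levels of 3.73 on the daidzein+PT array, 3.14 on daidzein, 2.46 on PT and 2.12 on PBS. Bcat1, the cytosolic enzyme, had -0.82 on daidzein+PT, -0.85 on daidzein, 0.28 on PT and 0.06 on PBS. Bcat2 was thus higher on both arrays with daidzein than on the arrays without it, and Bcat1 was lower on both. Relative to PBS, Bcat2 was higher by 1.61 with daidzein+PT and by 1.02 with daidzein, whereas Bcat1 differed by -0.88 and -0.91. Bcat2 rose with daidzein by 1.15 ± 0.07 (log2 effect ± SE in the additive fit) and with PT by 0.47 ± 0.07, and Bcat1 fell by 1.01 on the log2 scale with daidzein (SE 0.10), while its PT effect was 0.13 ± 0.10 and not called. Bcat1 has 3 probes on the array, all well above background, and the log2 difference of daidzein+PT from PBS was -0.88 for the probe used, -0.43 for the second and -0.70 for the third. On the mm9 positions of the files the Bcat2 probe lies at chr7:52844940-52844999 and the Bcat1 probe used at chr6:144948396-144948455, and their place relative to exons and UTRs was not analysed here.

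Of the 4 genes of the keto acid dehydrogenase step, the 3 that encode subunits of the enzyme rose with daidzein and its kinase was not called. Bckdhb, the beta subunit of the decarboxylase, had levels of 5.21 on daidzein+PT, 4.57 on daidzein, 3.94 on PT and 3.61 on PBS. Bckdha, the alpha subunit of the same decarboxylase, had 4.17 on daidzein+PT, 3.77 on daidzein, 3.45 on PT and 3.36 on PBS. With the scaling used, the order of the arrays was the same for both subunits and the steps were larger for Bckdhb. It was 3.03-fold higher with daidzein+PT than with PBS, against 1.76-fold for Bckdha. The log2 difference of daidzein+PT from PBS was larger by 0.79 for Bckdhb, and that of daidzein from PBS by 0.55. Dbt, the acyltransferase core, was a dim gene with -2.22 on daidzein+PT, -2.81 on daidzein, -3.83 on PT and -3.54 on PBS. Its daidzein effect of 1.17 ± 0.26 was called, with an error more than 3 times that of Bckdhb (1.11 ± 0.08). With normexp background correction the effect of Dbt was 0.50 and no longer called, and its difference of daidzein+PT from PBS was 0.59, against 1.32. Bckdk, the inhibitory kinase, had 1.98 on daidzein+PT, 1.91 on daidzein, 2.05 on PT and 2.09 on PBS, a daidzein effect of -0.12 ± 0.07 that was not called. Dld, the dihydrolipoamide dehydrogenase that this complex shares with pyruvate dehydrogenase and 2-oxoglutarate dehydrogenase, had 3.46 on daidzein+PT, 3.19 on daidzein, 2.74 on PT and 2.73 on PBS. It rose with daidzein by 0.59 ± 0.07, and its second probe gave 0.78 for daidzein+PT over PBS, against 0.73 for the first.

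All 4 genes of the leucine arm rose with daidzein. Ivd (isovaleryl-CoA dehydrogenase) had 3.93 on daidzein+PT, 3.55 on daidzein, 3.12 on PT and 2.93 on PBS. Mccc1, the biotin-carrying subunit of methylcrotonyl-CoA carboxylase, had 4.04 on daidzein+PT, 3.44 on daidzein, 3.24 on PT and 2.80 on PBS. Its partner subunit Mccc2 had 1.01 on daidzein+PT, 0.58 on daidzein, 0.32 on PT and 0.19 on PBS. With the scaling used, the daidzein+PT array was the highest and the PBS array the lowest in these 3 genes. Mccc1 and Ivd also rose with PT (0.52 ± 0.07 and 0.28 ± 0.07), but neither PT call held under every other processing. A second Mccc1 probe gave a smaller log2 difference of daidzein+PT from PBS (0.67, against 1.24), and a second Mccc2 probe was not well above background on any array. Auh, the hydratase that follows the carboxylase, was 1.58-fold higher with daidzein+PT than with PBS and rose with daidzein by 0.46 ± 0.07. Dimmer Auh probes gave smaller log2 differences of daidzein+PT from PBS, 0.31 and 0.26, against 0.66 for the probe used. Another, well above background on only 2 arrays, gave -0.49.

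In the valine and isoleucine arms, 4 of 5 genes rose with daidzein. Aldh6a1, which makes propionyl-CoA from methylmalonate semialdehyde, had levels of 4.02 on daidzein+PT, 3.39 on daidzein, 2.58 on PT and 2.32 on PBS. Hibch, the hydrolase 2 steps before it, had 3.70 on daidzein+PT, 3.15 on daidzein, 2.59 on PT and 2.36 on PBS. Hibadh, the dehydrogenase between them, had 5.24 on daidzein+PT, 4.86 on daidzein, 4.52 on PT and 4.37 on PBS. With the scaling used, the 3 consecutive valine enzymes shared the same order of arrays and rose with both treatments. Their daidzein effects were 1.26 ± 0.08 (Aldh6a1), 0.95 ± 0.07 (Hibch) and 0.60 ± 0.08 (Hibadh). The order of PT and PBS depends on the scaling, and none of the 3 PT calls held under every other processing. A second, dimmer Aldh6a1 probe gave 2.09 for daidzein+PT over PBS, against 1.70 for the probe used. The entry dehydrogenases of these arms differed less. Acadsb, of the isoleucine arm, rose with daidzein by 0.33 ± 0.08, and the dim gene Acad8, of the valine arm, had an effect of 0.36 ± 0.14 that was not called.

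The steps from propionyl-CoA to succinyl-CoA differed less than the arms that feed them. Of their 4 genes, 1 was at least 1.5-fold higher with daidzein+PT than with PBS, and the median log2 difference was 0.47. That gene, Mut (methylmalonyl-CoA mutase), had 3.21 on daidzein+PT, 2.87 on daidzein, 2.36 on PT and 2.23 on PBS. The propionyl-CoA carboxylase subunits stayed close together, with daidzein+PT above PBS by 0.33 for Pcca and 0.38 for Pccb, and the epimerase Mcee stood at 0.57. Mut, Mcee and Pcca rose with daidzein (Pcca not with quantile or median scaling), Pccb did not pass (0.29 ± 0.11), and 0 of the 4 passed for PT.

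**Figure D2:**
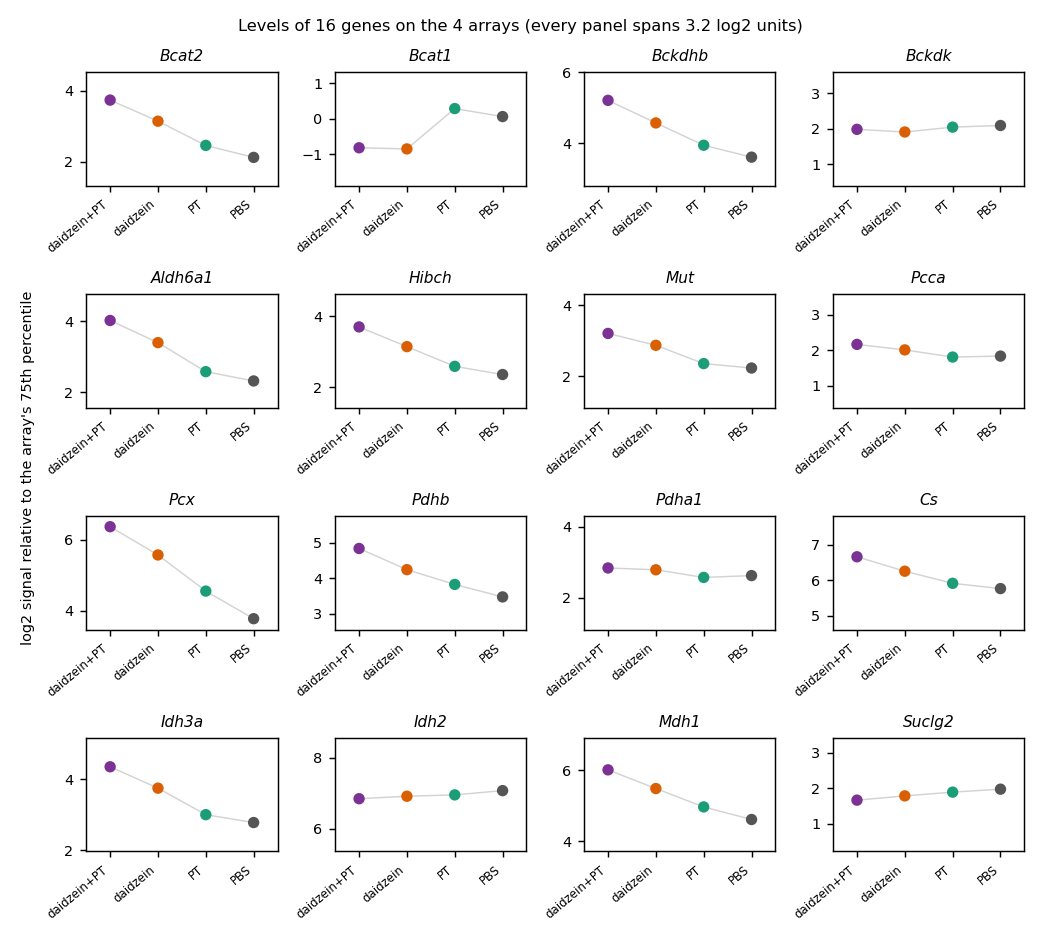
Log2 level relative to the 75th percentile of the array (y axis) of 16 of the 38 genes on the daidzein+PT, daidzein, PT and PBS arrays (left to right, 1 point per array, joined for reading), with the same span of 3.2 in each panel. Bcat2, Aldh6a1, Pcx, Pdhb, Idh3a and Mdh1 step down from daidzein+PT to PBS, Bcat1 is low on both arrays with daidzein, and Bckdk, Idh2 and Suclg2 stay within 0.31 of PBS on every array.

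Among the genes of pyruvate entry, Pcx stood apart from pyruvate dehydrogenase. Pcx, the carboxylase that turns pyruvate into oxaloacetate, had levels of 6.37 on daidzein+PT, 5.58 on daidzein, 4.56 on PT and 3.78 on PBS. Relative to PBS it was 6.02-fold higher with daidzein+PT, 3.47-fold with daidzein and 1.71-fold with PT, and was the only one of the 38 genes to pass 1.5-fold for PT over PBS. The daidzein difference was 1.79 on the log2 scale without PT and 1.81 with it, and the PT difference was 0.78 without daidzein and 0.80 with it, so the effects of both treatments added almost exactly. In the additive fit its daidzein effect of 1.80 ± 0.08 ranked 116 of 19568 genes from the top. The Pcx probe lies at chr19:4621610-4621669 on mm9.

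The subunits of pyruvate dehydrogenase moved by unequal amounts. Pdhb, the beta subunit of its decarboxylase, had 4.83 on daidzein+PT, 4.24 on daidzein, 3.82 on PT and 3.47 on PBS. Pdha1, the alpha subunit, had 2.84 on daidzein+PT, 2.79 on daidzein, 2.58 on PT and 2.63 on PBS. Pdhb was 2.57-fold higher with daidzein+PT than with PBS and Pdha1 1.16-fold higher. The acetyltransferase Dlat and the binding protein Pdhx lay between them, at 0.59 and 0.47 on the log2 scale. All 4 rose with daidzein, Pdha1 least (0.21 ± 0.07, not called with quantile or median scaling), and Pdhb also with PT (0.47 ± 0.07). A second Pdhb probe that overlaps the first gave 1.32 for daidzein+PT over PBS, and the third, a dimmer one named from another transcript, gave 0.23.

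Of the 13 genes of the TCA cycle, 11 rose with daidzein, Suclg2 fell and Idh2 was not called. Cs (citrate synthase, the entry of acetyl-CoA) had levels of 6.66 on daidzein+PT, 6.25 on daidzein, 5.91 on PT and 5.76 on PBS. Idh3a, the catalytic subunit of the NAD-dependent isocitrate dehydrogenase, had 4.35 on daidzein+PT, 3.75 on daidzein, 3.00 on PT and 2.78 on PBS. Its partner subunits Idh3b and Idh3g were higher with daidzein+PT than with PBS by 0.70 and 0.68, against 1.57 for Idh3a. Idh3a thus had the largest difference in the cycle, and exceeded its partners by 0.87 and 0.89. Idh2, the NADP-dependent mitochondrial enzyme for the same substrate, had 6.85 on daidzein+PT, 6.92 on daidzein, 6.95 on PT and 7.07 on PBS. Its daidzein effect was -0.13 ± 0.10 and its PT effect -0.09 ± 0.10.

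Later in the cycle, Ogdh and Dlst, which form the 2-oxoglutarate dehydrogenase complex with Dld, rose with daidzein by 0.57 ± 0.08 and 0.33 ± 0.07. For Ogdh a second probe next to the first gave 0.69 for daidzein+PT over PBS (0.77 for the first), while the third at chr11:6258910-6258969 on mm9 gave -0.01. Succinyl-CoA synthetase has a shared alpha subunit, Suclg1, and either of 2 beta subunits. Sucla2, the beta subunit of the ADP-forming enzyme, had 4.80 on daidzein+PT, 4.49 on daidzein, 4.24 on PT and 4.14 on PBS. Suclg2, the beta subunit of the GDP-forming enzyme, had 1.67 on daidzein+PT, 1.79 on daidzein, 1.90 on PT and 1.98 on PBS, the reverse order. Suclg1 and Sucla2 rose with daidzein by 0.47 ± 0.08 and 0.46 ± 0.08, whereas Suclg2 fell by 0.21 on the log2 scale (SE 0.07), with an adjusted p of 0.0476 that lay close to the threshold of the additive limma fit. Suclg2 was no longer called with normexp correction, quantile normalization or scaling by the median, in the deposited table or with the mean over probes. Fh1 (fumarase) was 1.70-fold higher with daidzein+PT than with PBS and rose with both treatments, by 0.50 ± 0.08 with daidzein and 0.26 ± 0.08 with PT. Mdh1, the cytosolic malate dehydrogenase, had 6.01 on daidzein+PT, 5.48 on daidzein, 4.96 on PT and 4.61 on PBS, and Mdh2, the mitochondrial enzyme of the cycle itself, had 7.73 on daidzein+PT, 7.42 on daidzein, 7.10 on PT and 7.10 on PBS. Mdh1 was 2.64-fold higher with daidzein+PT than with PBS and Mdh2 1.54-fold higher.

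**Figure D3:**
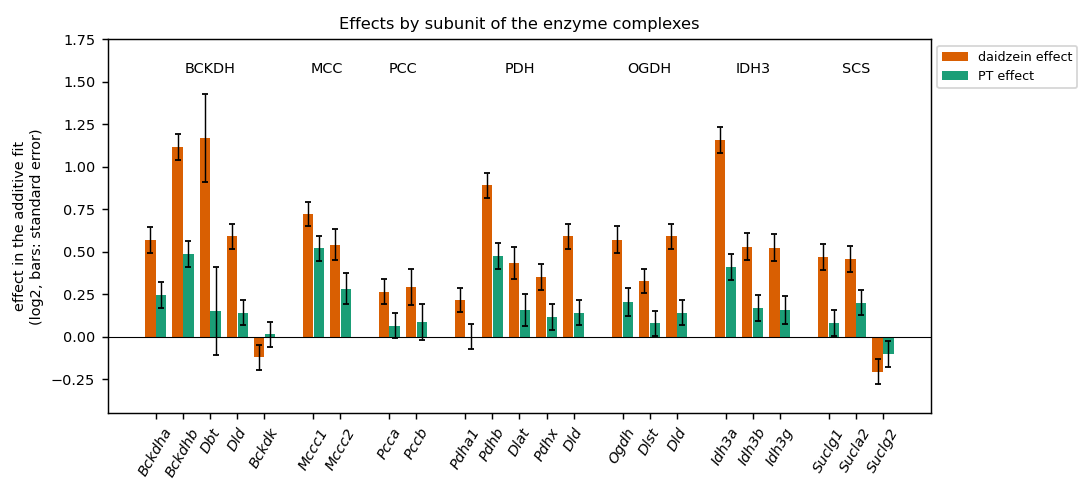
Effect of daidzein (orange) and of PT (green) on the log2 scale in the additive limma fit (y axis), with bars for its standard error, for the subunits of the branched-chain keto acid (BCKDH, with its kinase Bckdk), methylcrotonyl-CoA carboxylase (MCC), propionyl-CoA carboxylase (PCC), pyruvate dehydrogenase (PDH), 2-oxoglutarate dehydrogenase (OGDH), isocitrate dehydrogenase (IDH3) and succinyl-CoA synthetase (SCS) complexes. For daidzein, Bckdhb stands above Bckdha, Pdhb above the other subunits of its complex and Idh3a above Idh3b and Idh3g, and Bckdk and Suclg2 lie below 0.

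The layout gives the daidzein effect in 2 pairs that share no array, daidzein over PBS and daidzein+PT over PT. In daidzein over PBS, 12 of the 38 genes were at least 1.5-fold higher (31.6%, against 3.11% of all genes) and 1 lower (2.63%, against 2.42%), with a median of 0.40, against -0.03 for all genes. In daidzein+PT over PT, 22 were higher (57.9%, against 5.06%) and 1 lower (2.63%, against 3.6%), with a median of 0.67, against -0.01. The same 12 genes passed in both pairs, which was so for 1.99% of the 18256 genes measured on all arrays, and Bcat1 was lower in both. Above 0 in both pairs were 34 of the 38 genes (89.5%, against 30.3% of all genes). The exceptions, Bcat1, Bckdk, Idh2 and Suclg2, were below 0 in both. The count of 34 was the same with scaling by the median, quantile normalization, normexp background correction and the authors' deposited table, and was 33 when the probes of a gene were averaged.

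For PT the corresponding pairs are PT over PBS and daidzein+PT over daidzein. In PT over PBS, 1 gene, Pcx, was at least 1.5-fold higher (2.63%, against 2.6% of all genes) and 0 lower (against 0.675%). This share is near that of all genes. In daidzein+PT over daidzein, 8 were higher (21.1%, against 3.15%) and 0 lower (against 0.921%): Pcx, Bckdhb, Aldh6a1, Idh3a, Mccc1, Pdhb, Bcat2 and Dbt, by 0.59 to 0.80 on the log2 scale. That count was between 1 and 3 under the other scalings and background corrections, and the 13 genes that rose with PT in the additive fit became between 1 and 9. With scaling by the median both counts were 1 of 38, near the share of all genes (388 of 18571 and 324 of 19568). In the 2 pairs the medians were 0.11 and 0.34, against -0.03 and 0.00 for all genes. Above 0 in both pairs were 30 of the 38 genes (78.9%, against 23.3%). The direction for PT alone depends on the scaling: with each array scaled by its median, the median of all genes shifts to -0.27 in PT over PBS, that of the 38 genes is -0.13, and 8 of them (21.1%, against 4.09% of all genes) lie above 0 in both pairs.

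**Figure D4:**
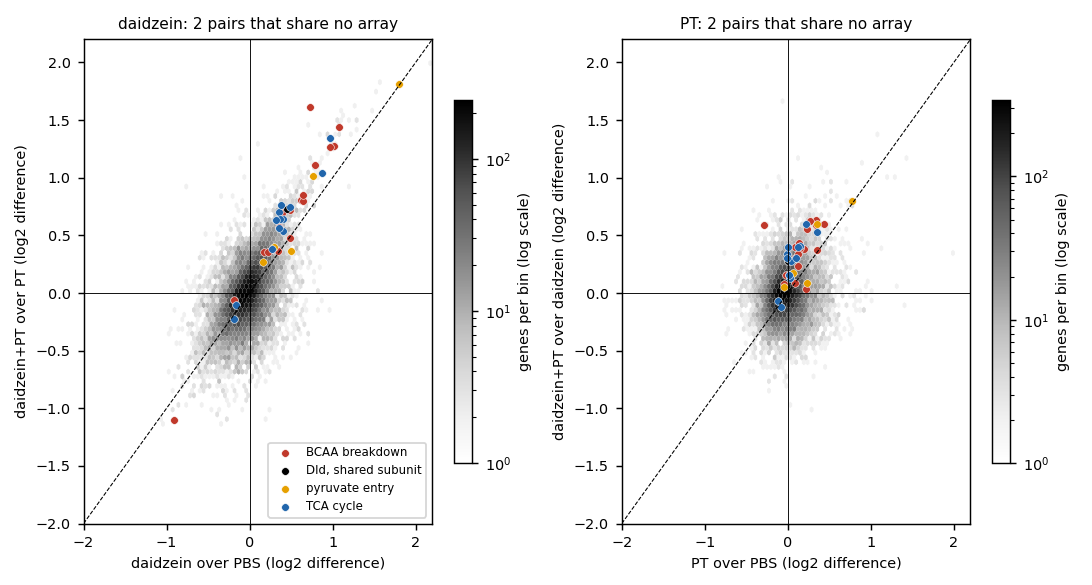
Log2 differences in the 2 pairs of arrays that share no array, for daidzein (left: daidzein over PBS on the x axis, daidzein+PT over PT on the y axis) and for PT (right: PT over PBS on the x axis, daidzein+PT over daidzein on the y axis), with all 18256 genes in grey bins and the 38 genes as coloured points. On the left 34 points lie above 0 on both axes and mostly above the dashed line of equal differences, and on the right 30 do, which becomes 8 when arrays are scaled by the median.

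Most of the 38 genes lay higher with daidzein+PT, relative to PBS, than the separate differences add up to. The exceptions were Bcat1, Dlat, Mcee and Suclg2. The interaction, the amount by which the PT difference was larger where daidzein was present, was above 0 for 34 of the 38 genes, with a median of 0.21, against 0.04 for all genes. It was larger for brighter genes in general: among the 6086 bright genes its median was 0.08 and 72.4% were above 0, and among the 26 bright genes described here the median was 0.24 and all 26 were above 0. Ogdh (0.39), Idh3a (0.38) and Aldh6a1 (0.36) had the largest values among the bright genes and Pcx had 0.02. The median interaction of the 38 genes was 0.14 with quantile normalization (-0.005 for all genes) and 0.31 with scaling by the median (0.14 for all genes). With 1 array per group the interaction has no error of its own and was not tested, and it is what the additive fit takes as error.

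**Figure D5:**
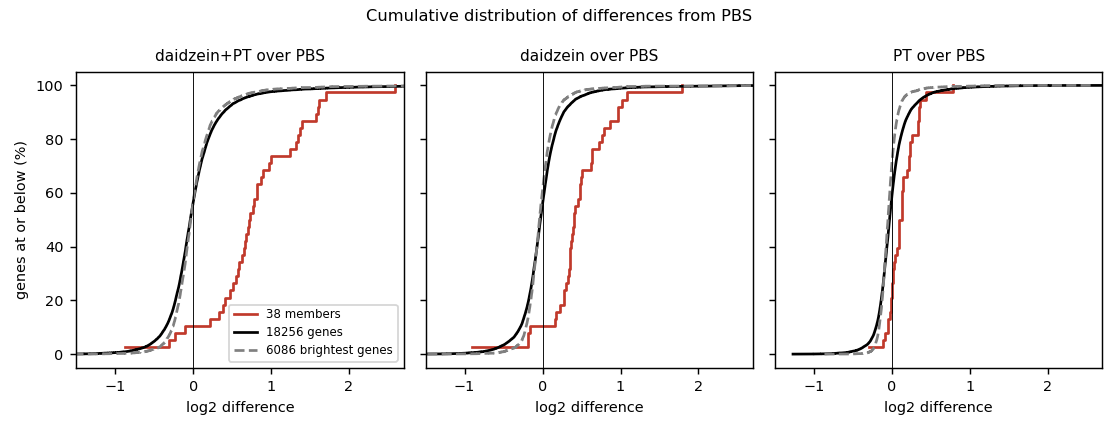
Cumulative share of genes (y axis, percent) at or below a log2 difference from the PBS array (x axis) for daidzein+PT, daidzein and PT, with the 38 genes in red, the 18256 genes measured on all arrays in black and the 6086 brightest of them dashed in grey. At its median the red curve lies to the right of the others, at 0.72 for daidzein+PT, 0.40 for daidzein and 0.11 for PT. The last becomes -0.13 when arrays are scaled by the median.

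Genes that act beside the pathway were examined as lists. For these and the lists that follow, the shares over all genes are 5.92% at least 1.5-fold higher with daidzein+PT than with PBS, and 9.2% that rose and 7.5% that fell with daidzein. Of 12 genes of BCAA import, cofactors and remaining steps, 5 were at least 1.5-fold higher with daidzein+PT than with PBS and 7 rose with daidzein, among them Mmab, which makes the cobalamin cofactor of Mut (log2 difference 1.35), Oxct1, which activates ketone bodies (0.79), the hydratase Echs1 (0.78) and Lipt1, a lipoyl transferase (0.69). Of the 7 remaining TCA cycle enzymes and their cytosolic counterparts, 3 were at least 1.5-fold higher and 6 rose, including Sdha (0.62) and Sdhc (0.53), subunits of succinate dehydrogenase. Cytosolic aconitase, Aco1, stood at 0.65 and did not pass. In neither list did a gene fall with daidzein or pass for PT, for which 3.19% of all genes rose and 0.818% fell.

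Of 9 genes of pyruvate import and pyruvate dehydrogenase control, 4 rose and 1 fell with daidzein. The carrier subunits Mpc1 and Mpc2, named Brp44l and Brp44 on the array, were higher with daidzein+PT than with PBS by 1.26 and 0.55, and the kinase Pdk2 by 0.72. Pdk4, another kinase that inactivates the complex, fell, with levels of 2.04 on daidzein+PT, 2.26 on daidzein, 2.67 on PT and 2.62 on PBS. Among 11 genes that move citrate, malate and aspartate between mitochondria and cytosol or use them there, 5 rose with daidzein and 0 fell. The dicarboxylate carrier Slc25a10 was higher with daidzein+PT by 1.94, malic enzyme Me1 by 1.14 and the citrate-cleaving enzyme Acly by 0.75, and the citrate carrier Slc25a1 rose with daidzein by 0.76 ± 0.08.

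Of 11 regulators of mitochondrial and adipocyte genes, 10 were measured, and Esrrg was not well above background on any array. With daidzein 5 rose, Cebpa, Klf15, Pparg, Ppargc1b and Esrra. The first 4 had log2 differences of daidzein+PT from PBS of 2.48, 2.21, 1.79 and 1.47. Ppargc1a, a coactivator of mitochondrial gene expression, had a difference of -0.28, and the respiratory gene regulators Nrf1, Gabpa and Tfam had -0.11, -0.03 and -0.01, and none of the 4 passed for either treatment.

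Markers of the adipocyte differed along with the pathway. Summed over 8 markers (Adipoq, Fabp4, Plin1, Cidec, Lipe, Lpl, Cd36 and Slc2a4, all well above background), the linear level in units of the 75th percentile was 947 on daidzein+PT, 592 on daidzein, 262 on PT and 138 on PBS, and all 8 rose with both treatments. The sum of 7 preadipocyte and fibroblast markers was 908 on daidzein+PT, 858 on daidzein, 1019 on PT and 1040 on PBS, and that of 4 genes of dividing cells was 8.45 on daidzein+PT, 7.51 on daidzein, 10.4 on PT and 10.5 on PBS. The brightest probes weigh most in such sums, and the genes within them disagreed. Dlk1, Pdgfra, Ly6a and Thy1 fell with daidzein, Acta2 rose (0.25 ± 0.07), and Col1a1 and Col3a1 were not called. Mki67, Top2a and Ccnb1 fell with daidzein and Cdk1 was not called. Macrophage markers summed to between 28.5 and 31.0 on the 4 arrays. Adgre1 and Ptprc were not well above background, and Cd68, Csf1r and Itgam were on all 4. Testis markers summed to between 0.185 and 0.248, with Tnp1, Ddx4, Amh and Dazl not well above background and Insl3 not on the array. Prm1 and Prm2 were well above background on all 4 arrays, PBS included, at log2 levels between -4.27 and -3.45. The PT differences without and with daidzein were 0.54 and 0.75 for Prm1, and -0.03 and 0.54 for Prm2. Neither gene was called for PT. The labelled cell type thus had its markers on every array. In RNA of a whole culture, a change in the number of adipocytes and a change of RNA per cell cannot be told apart, and the part of the adipocyte markers in the results for the 38 genes was not tested.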

How the data were processed

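RNA of each of the 4 groups was hybridized to 1 Agilent mouse array of 60-base probes. The deposited scanner files hold a spot intensity that was background-subtracted and detrended by Agilent Feature Extraction, per the file headers, which name version 10.7.1.1. The submitters' processing notes name 9.5.1.1 instead. Flags for control, outlier, saturated and well above background spots are also those of the file headers. The authors' deposited series table holds intensities whose sorted values differ by at most 0.0474% between arrays, and served as an alternative. Here control and outlier spots (106 to 173 per array) were left out, the intensity was put on the log2 scale, the 75th percentile of the array was subtracted, and replicate spots were averaged. The limited number of arrays sets the precision.

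The brightest probe by mean signal stood for a gene, which entered a comparison when well above background on both arrays. Differences of 1.5-fold or more were counted, with no test. The additive fit used limma 3.58.1 in R 4.3.3 (lmFit, then eBayes with the trend option, p adjusted by Benjamini-Hochberg) on the 19568 genes that 2 or more arrays showed well above background. It has 1 residual degree of freedom. It was also run on simulated data whose spread followed the signal, as the fit assumes. That run therefore cannot show whether the calls hold where genes of equal signal differ in spread. Tables and figures were made with Python 3.11.15, pandas 2.3.3, numpy 2.4.6 and matplotlib 3.10.9. Probe positions are on mm9, as in the files, and upstream sequences are RefSeq's on GRCm38.p6.

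The text names the 38 genes. It describes their other probes that were well above background on the 4 arrays and differed by more than 0.5 on the log2 scale. Some further probes are described, but not all of the dimmer ones. It also names up to 4 genes of each other list with the largest difference for daidzein+PT over PBS. Of these list genes, 1 is not reported here. Ppargc1a, Nrf1, Gabpa, Tfam and Esrra were named after their values were seen, and so were the 4 genes whose sequences are shown. The genes and lists were chosen with earlier results of these data known. The labels do not say whether the groups came from separate cultures. The p-values set each treatment effect against an error taken from the departure of these 4 arrays from additive effects, pooled over genes. They do not measure a spread between cultures. Alternatives were normexp background correction with an offset of 50, quantile normalization, scaling by the median, the deposited table, the mean over probes, no filter on dim probes, a 2-fold threshold and a fit with a common spread.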

Additional observations from a re-analysis of the deposited data

Results flagged for a closer look

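For 6 of the 38 genes the PT difference had opposite signs without and with daidzein. Of the others, 30 were above 0 in both pairs (78.9%, against 23.3% of all genes) and 2 below 0 in both (5.26%, against 32.0%). Opposite signs were thus rarer among the 38 genes than among all genes with this scaling, but not with each array scaled by its median. There 8 of the 38 genes were above 0 in PT over PBS, 30 in daidzein+PT over daidzein and 8 in both. Of all 18256 genes these counts were 1722, 3907 and 746. The difference between the 2 effects (with daidzein minus without) was not tested, since each group has 1 array. For Dbt, a dim gene, it was 0.88 on the log2 scale, with PT at 0.59 with daidzein and -0.29 without. It was 0.35 for Idh3b (0.34 with daidzein and -0.01 without) and 0.31 for Mdh2 (0.30 and -0.01). The other values were 0.18 for Pcca, 0.12 for Bckdk and 0.10 for Pdha1. In none of the 6 genes were both PT differences larger than the SD of a difference for their signal class.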

How the results depend on the processing

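No paired analysis was possible because each group has 1 array and there are no replicate numbers to pair. Counts below are of the 38 genes. The number at 1.5-fold higher in daidzein+PT over daidzein was 3 with normexp correction and with quantile normalization, 2 in the authors' deposited table and 1 with scaling by the median, against 8. The genes that fell with daidzein were 1 under each of these and with the mean over probes, against 2. The genes that rose with PT were 6 with quantile normalization and with the deposited table, 4 with the mean over probes and 1 with scaling by the median, against 13. Scaling by the median also gave 16 genes higher in daidzein+PT over PBS (678 over all genes). It gave 0 higher in PT over PBS (252 over all genes) and a median of -0.13 there. Averaging probes put 1 gene 1.5-fold lower in PT over PBS and turned Mccc2 to -0.52 for daidzein+PT over PBS and -0.11 for the daidzein effect, because it brings in its probe that is not above background. At 2-fold, 10 were higher and 0 lower in daidzein+PT over PBS (462 and 104 of 18463 genes). In daidzein over PBS 3 were higher and 0 lower (208 and 70 of 18916 genes). In PT over PBS 0 were higher (162 of 18806 genes) and in daidzein+PT over daidzein 0 (196 of 18571 genes). In daidzein+PT over PT 9 were higher (388 of 18516 genes). With a common spread 1 gene rose and 0 fell with daidzein, and 0 rose with PT. Over all genes that fit called 64 higher and 4 lower for daidzein and 11 higher and 1 lower for PT, against 1801, 1467, 625 and 160. With scaling by the median the PT effect had 324 genes higher and 1129 lower. For PT, 240 genes were higher with normexp correction and 201 in the deposited values. The daidzein calls of Acadsb, Dlst and Mdh2 were lost with scaling by the median, and those of Acadsb, Auh and Pdhx with the mean over probes. Except where named, the cause of these changes was not tested. Dbt and Acad8 are the 2 genes of the dim class, where the SD of a difference is 0.33.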
